A study of Mus musculus with 6 samples.

Results

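The accessible chromatin of 10 imprinted genes of the major mouse clusters was described from ATAC-seq peaks. The genes were Igf2, Igf2r, Peg3, Mest, Peg10, Snrpn, Dlk1, Grb10, Cdkn1c and Plagl1. A peak was assigned to the closest protein-coding gene up to 100 kb away, a peak touching a gene being at distance 0, and a tied peak was counted for each gene. All 10 genes were found among 21883 protein-coding genes. They held 159 of the 205844 peaks of the list named FM and 127 of the 139164 peaks of the list named KO.

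ATAC-seq uses the Tn5 transposase to cut and tag DNA in open chromatin. The cells were mouse epiblast stem cells, a pluripotent cell of the post-implantation embryo, kept on irradiated mouse embryonic fibroblasts with bFGF and activin A and then differentiated in serum for 2 days as embryoid bodies. One group of 3 libraries came from Mixl1 knockout cells, and the other group of 3 came from Mixl1-inducible lines, treated for 24 h before collection with 1 µg/mL doxycycline. Mixl1 encodes a homeodomain factor that marks the primitive streak. The labels give no further allele, no strain and no clone number, and they do not say whether the libraries of a group came from separate cultures. They mention doxycycline for the inducible lines only, so Mixl1, doxycycline and the line itself cannot be told apart. No label explains FM, and the FM list was set to the induced group by elimination. Each group has a single list, and how its libraries were combined is not given. There is thus no spread between replicates, and no difference between the lists was tested.

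An imprinted gene is expressed mainly from a single parental copy. In most clusters a short control region carries DNA methylation set in the egg or in the sperm, and the unmethylated copy is the accessible one. Several of these regions are promoters, of a protein-coding gene such as Peg3, Mest, Peg10, Snrpn or Plagl1, or of a long noncoding RNA such as Airn, which lies inside Igf2r. Many genes of the group act on growth: Igf2 is a fetal growth factor, Igf2r and Grb10 restrain its signalling, and Cdkn1c inhibits the cell cycle. ATAC-seq peaks do not tell the parental copies apart.

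The promoters on which the results turn are shown first, each as the 250 bases upstream of an annotated start, read 5′ to 3′ on the gene's strand, from RefSeq on GRCm38.p6. Capitals mark matches, on either strand, of TGCCGC (the core bound by ZFP57, a zinc finger protein that protects imprints), GGGCGG (the GC box of Sp1 and KLF factors) and AGGGGGC (part of the CTCF core). A match is a string of letters and not a site. Mest and Plagl1 are shown because their starts lay inside peaks of both lists. Of the genes in the promoter table, these were also the ones with the ZFP57 core. Igf2 is shown at a start inside a KO peak only. Grb10, Snrpn and Dlk1 are shown because their starts lay inside a KO peak and outside every FM peak. Airn and Peg3 are shown because pileups differed between the lists in the region over the Airn start and downstream of the Peg3 start.

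Mest, chr6:30737800-30738049, plus strand: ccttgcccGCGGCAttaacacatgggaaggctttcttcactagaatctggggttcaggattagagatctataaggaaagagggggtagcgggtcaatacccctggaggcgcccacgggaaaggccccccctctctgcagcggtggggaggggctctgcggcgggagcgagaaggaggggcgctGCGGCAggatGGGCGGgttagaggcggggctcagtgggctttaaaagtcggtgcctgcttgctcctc

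Plagl1, chr10:13090582-13090831, plus strand: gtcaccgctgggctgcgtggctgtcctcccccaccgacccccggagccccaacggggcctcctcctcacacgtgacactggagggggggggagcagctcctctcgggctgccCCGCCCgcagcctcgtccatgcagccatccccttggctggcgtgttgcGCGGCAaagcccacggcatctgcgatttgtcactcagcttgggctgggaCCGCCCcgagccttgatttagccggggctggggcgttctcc

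Igf2, chr7:142658805-142659054, minus strand: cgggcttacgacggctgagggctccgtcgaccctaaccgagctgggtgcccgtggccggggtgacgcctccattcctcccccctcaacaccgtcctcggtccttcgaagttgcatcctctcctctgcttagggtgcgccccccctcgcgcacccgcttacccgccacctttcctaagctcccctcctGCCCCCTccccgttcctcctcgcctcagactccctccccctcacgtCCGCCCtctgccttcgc

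Grb10, chr11:12037421-12037670, minus strand: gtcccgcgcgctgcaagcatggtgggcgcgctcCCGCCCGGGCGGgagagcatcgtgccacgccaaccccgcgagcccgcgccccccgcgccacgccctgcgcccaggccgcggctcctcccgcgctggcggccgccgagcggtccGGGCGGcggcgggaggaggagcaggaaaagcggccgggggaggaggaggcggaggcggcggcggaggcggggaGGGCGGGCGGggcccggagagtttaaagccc

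Snrpn, chr7:60005200-60005449, minus strand: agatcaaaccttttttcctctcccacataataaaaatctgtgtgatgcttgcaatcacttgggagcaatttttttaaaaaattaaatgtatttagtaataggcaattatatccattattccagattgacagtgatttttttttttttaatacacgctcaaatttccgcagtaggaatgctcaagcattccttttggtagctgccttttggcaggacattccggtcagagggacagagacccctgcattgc

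Dlk1, chr12:109452573-109452822, plus strand: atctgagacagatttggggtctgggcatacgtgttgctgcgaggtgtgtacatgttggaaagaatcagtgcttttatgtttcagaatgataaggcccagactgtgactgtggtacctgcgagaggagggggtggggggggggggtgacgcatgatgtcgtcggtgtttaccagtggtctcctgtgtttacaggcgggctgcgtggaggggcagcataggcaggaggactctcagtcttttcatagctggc

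Peg3, chr7:6730420-6730669, minus strand: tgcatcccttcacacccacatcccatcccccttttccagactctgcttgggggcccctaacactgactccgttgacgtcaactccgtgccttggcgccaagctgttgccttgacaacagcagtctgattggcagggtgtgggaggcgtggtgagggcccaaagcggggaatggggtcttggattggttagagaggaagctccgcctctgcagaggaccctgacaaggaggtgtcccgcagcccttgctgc

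Airn, chr17:12741061-12741310, plus strand: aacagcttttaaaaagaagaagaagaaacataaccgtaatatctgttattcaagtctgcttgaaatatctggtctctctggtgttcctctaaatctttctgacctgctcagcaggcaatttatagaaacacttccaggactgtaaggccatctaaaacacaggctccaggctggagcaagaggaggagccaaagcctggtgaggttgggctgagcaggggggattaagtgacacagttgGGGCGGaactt

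These windows differed widely in CG content. The Grb10 window held 40 CG dinucleotides, more than 98.7% of 32851 RefSeq promoter windows, whose median was 6. The Igf2 window shown held 22, Plagl1 held 19 and Mest held 14, while Peg3 and Dlk1 held 8 each, Snrpn 3 and Airn 2. The ZFP57 core occurred at positions -242 and -67 of the Mest window and at -90 of the Plagl1 window, counted from the start, and in 8.68% of all promoter windows. The GC box occurred 5 times in the Grb10 window and in 32.7% of all windows. The part of the CTCF core occurred at -63 of the Igf2 window shown and in 9.43% of all windows. The YY1 core ATGGCGGC, found in 1.03% of all windows, and the paired homeodomain core TAATTA, found in 4.84%, were in none of the 17 windows of the member genes or in that of Airn. Peg10 and Cdkn1c were not in the promoter table, and both ends of these genes were used as possible starts.

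**Figure D1:**
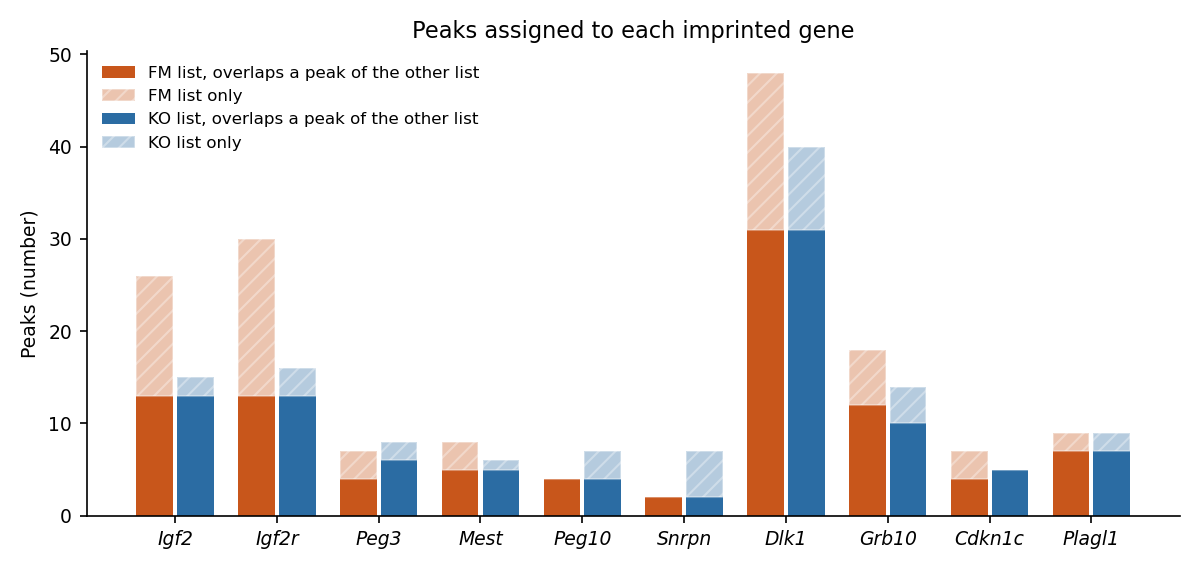
Number of peaks (vertical axis) assigned to each of the 10 imprinted genes, with an FM bar and a KO bar per gene; full colour is peaks overlapping a peak of the other list and hatched colour is peaks of that list alone. Dlk1 has the tallest bars, with 48 and 40 peaks, and Snrpn has 2 FM peaks against 7 KO peaks.

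The genes held a median of 8.5 peaks per gene in each list, against medians over all protein-coding genes of 5 for FM and 3 for KO. Their median length was 21.3 kb, against 17.2 kb. Dlk1 held 48 FM and 40 KO peaks, more than 97.7% and 98.8% of genes. Only 4 of these FM peaks and 3 of the KO peaks touched the 10.9 kb gene, and the others lay in the sequence around it. Igf2r followed with 30 and 16, Igf2 with 26 and 15, and Grb10 with 18 and 14. The other genes held 9 or fewer in each list. Snrpn held 2 FM and 7 KO peaks and Peg10 4 and 7, so that these genes, with Peg3 at 7 and 8, had more peaks in the shorter KO list.

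Of the 159 FM peaks, 95 overlapped a KO peak by at least 1 bp, a share of 59.7% (95% Clopper-Pearson interval 51.7 to 67.4, which covers counting error only). Among all FM peaks with a gene within 100 kb the share was 49.8%. Of the 127 KO peaks, 96 overlapped an FM peak, or 75.6% (67.2 to 82.8), against 73.4% over all KO peaks. Conversely, 64 FM peaks and 31 KO peaks had no partner; the background of such peaks was 50.2% of the FM list and 26.6% of the KO list. FM peaks made up 67.4% (57.0 to 76.6) of the list-only peaks of these genes and 73.7% of those of all genes. The values over all genes lay inside the intervals of the KO share and of this split, and just below that of the FM share. Without Dlk1 the FM share was 57.7%, with an interval of 47.9 to 67.0 that holds the value over all peaks.

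Most list-only peaks were weak, as over all genes. A −log10 q of at least 10 was reached by 2 of 64 FM-only peaks, or 3.12%, against 5.99% over all genes, and by 3 of 31 KO-only peaks, or 9.68%, against 9.04%. A value of at least 5 was reached by 20 FM-only and 15 KO-only peaks. The matching share over all genes was not computed, so counts at this threshold serve only to name peaks. The FM-only peaks above 10 lay inside Grb10 (fold enrichment over local background 2.77) and inside Igf2 (1.84), and the KO-only peaks above 10 at the Snrpn start (2.98), 42.2 kb beyond Snrpn (2.85) and inside Igf2 (1.93). When each list was reduced to its 50000 peaks of lowest p, the FM share of list-only peaks at these genes was 30.3% (10 of 33; interval 15.6 to 48.7), against 50.4% over all genes. In these lists of equal length Dlk1 had 8 KO-only peaks and no FM-only peak. The lowest −log10 q kept was 9.93 for FM and 8.22 for KO. No Dlk1 peak of 1 full list alone reached this, the highest being 8.57 for FM and 6.70 for KO. These 8 KO peaks thus overlapped weaker FM peaks that the cut left out. Snrpn had 4 KO-only peaks and no FM-only peak. Igf2r, Peg3 and Plagl1 each had 2 KO-only peaks and no FM-only peak, and Peg10 had 1 of each kind. Igf2 went the other way with 4 FM-only and 2 KO-only peaks, as did Grb10 with 3 and 1 and Mest with 2 and 1. Without Dlk1 the share was 40.0% (10 of 25; 21.1 to 61.3).

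The annotated start lay inside a peak of both lists for 6 of the 10 genes, Igf2r, Peg3, Mest, Peg10, Cdkn1c and Plagl1, against 61.3% of all protein-coding genes. A start of every gene lay inside a KO peak (63.7% of all genes) and of 7 inside an FM peak (65.0%). For Grb10 the FM peak ended 32 bp from the start, for Dlk1 the nearest FM peak was 214 bp away and for Snrpn 362 bp away. Igf2 had its starts in different lists. Its start at chr7:142666816 lay inside an FM peak alone, and those at chr7:142657496 and chr7:142658804 lay inside KO peaks, with FM peaks 58 and 61 bp away.

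**Figure D2:**
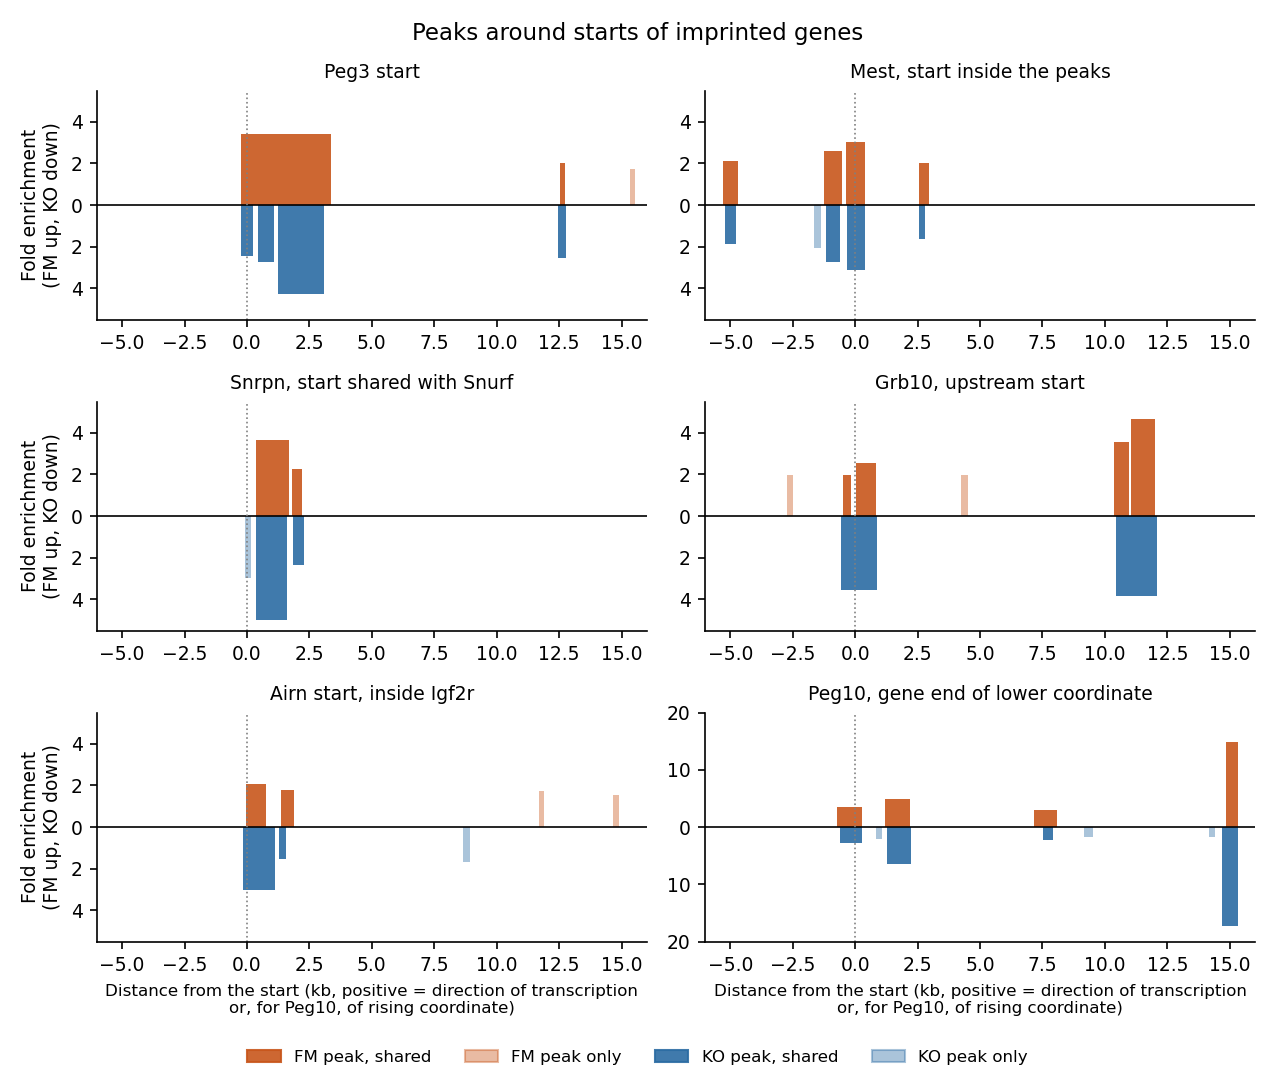
Peaks within 6 kb before and 16 kb after a start (horizontal axis, kb), drawn at their width with fold enrichment over local background as height, FM upward and KO downward; pale bars have no partner in the other list, and the Peg10 panel has a taller scale. The Snrpn start lies in a pale KO bar beside a shared peak, Peg3 has a single wide FM bar over 3 KO bars, and the tallest bars lie past the end of Peg10.

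The strength of a peak was read from its pileup, the number of sequenced tags covering its summit, which was recovered from the deposited fold and p values. The recovered genome-wide background was 28.6 tags for FM and 28.8 for KO. In 91 regions of these genes with a peak in both lists, the KO pileup was at least 1.5 times the FM pileup in 13 and the reverse held in 4. Over all 92128 such regions these shares were 6.33% and 7.12%. Dlk1 held 10 of the 13: without it the counts were 3 and 4 of 61. The median KO to FM ratio was 1.10 over the members, 0.95 without Dlk1 and 0.95 over all regions. Ratios below carry 95% binomial intervals for the counting of tags only, and assume that both lists were called with the same tag extension. Each ratio takes the strongest summit of each list in the region, and these summits need not lie at the same position.

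**Figure D3:**
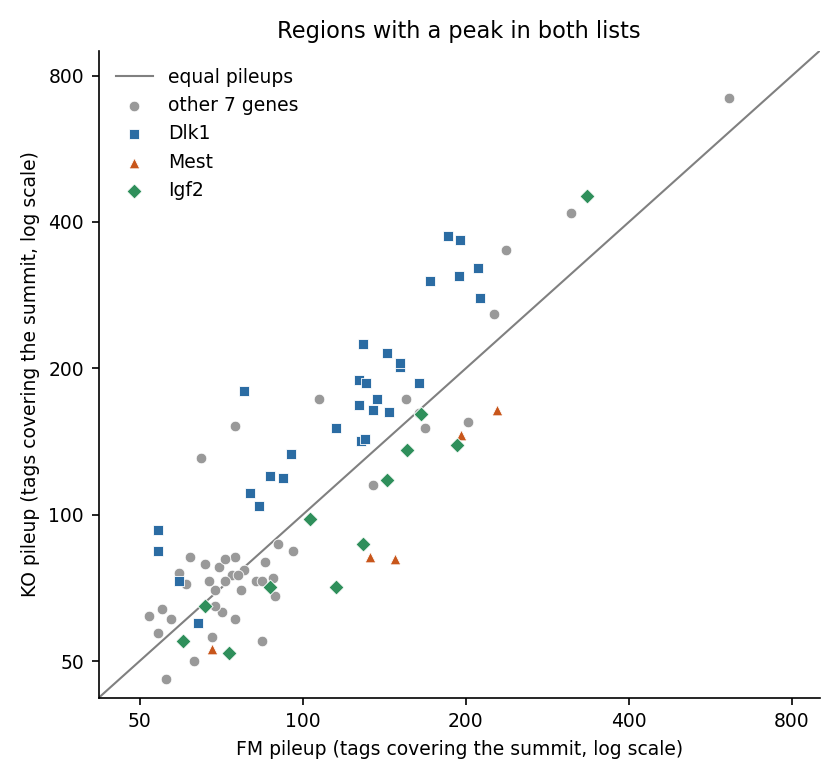
KO pileup against FM pileup (tags covering the summit, log scales) in the 91 regions with a peak in both lists; the line marks equal pileups. The Dlk1 squares lie above the line in 29 of 30 regions, the 5 Mest triangles below it, and 11 of the 12 Igf2 diamonds below it.

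Dlk1 and Mest stood at opposite sides. Dlk1, a Notch-related membrane protein of fetal tissues, had 30 regions with a peak in both lists, with a median KO to FM ratio of 1.37 (range 0.938 to 2.31). The ratio was above 1 in 29, with the interval wholly above 1 in 20. Mest, a hydrolase-like protein of the mesoderm, had 5 regions with a median of 0.719 (range 0.547 to 0.779), all below 1, with the interval wholly below 1 in 4. Over all 92128 assigned regions the ratio was above 1 in 38222. Intervals were not counted over all regions, so the interval counts have no matching share. Of 10700 genes with at least 3 regions, 97.0% had a lower median than Dlk1 and 3.06% a lower one than Mest.

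**Figure D4:**
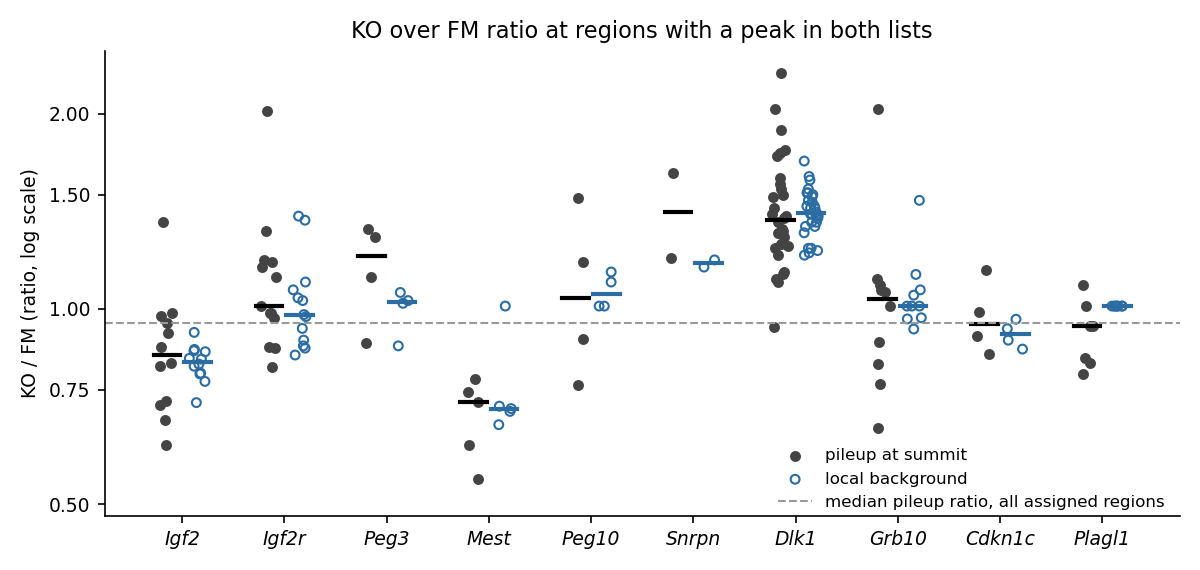
KO to FM ratio (log scale) of the summit pileup (filled points) and of the local background (open points) in each region with a peak in both lists, by gene; bars are medians and the dashed line is the median pileup ratio over all assigned regions, 0.95. The medians of the open points lie near those of the filled ones at Dlk1 and Mest, while single regions depart from this, such as the Mest region with a background ratio of 1.01.

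At both genes the local background around the peaks moved with the pileups. No input library is among the samples, so this background was drawn from the same libraries and is not independent of the pileups. The KO to FM ratio of the background had a median of 1.40 at Dlk1 (range 1.21 to 1.69), higher than at 99.2% of genes. At Mest the median was 0.702 (range 0.663 to 1.01), higher than at 0.991% of genes. Fold over local background, given side by side, showed no common direction. It was higher in the KO list in 13 of the 30 Dlk1 regions and 2 of the 5 Mest regions. At the Mest start it was 3.03 for FM and 3.13 for KO, and in the region inside Mest with the lowest pileup ratio 2.00 and 1.65. At Dlk1 it ranged from 2.20 for FM and 1.69 for KO in the most distant region upstream to 1.91 and 2.75 in the region with the largest pileup ratio. The copy number of these stretches in the lines, which would move pileup and background together, was not tested. In bulk libraries, fewer cells of a type and less open chromatin per cell cannot be told apart.

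The shift at Dlk1 reached beyond the gene's own peaks. In the other 250 regions within 1 Mb of the gene the median ratio was 1.19 for pileup and 1.29 for background. Of these regions 210 were above 1, against 38222 of 92128 over all assigned regions. Within 5 Mb the median was 1.15 for pileup over 1329 regions. Over the whole of chromosome 12 it was 1.01. FM pileups at the Dlk1 peaks ran from 54 to 212 with a median of 116.5, and KO pileups from 60 to 375 with a median of 157. The strongest KO peak, 15 kb before the gene at chr12:109436148-109437495, had 375 tags and a fold of 3.09. The same region had 185 tags in the FM list (ratio 2.03, 1.70 to 2.43). The strongest FM peak, 28.2 kb before the gene, had 212 tags and a fold of 2.73, with 279 KO tags in its region. The largest ratio, 2.31 (1.76 to 3.05), came from a region 11.3 kb past the gene with 78 and 180 tags.

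At the Dlk1 start itself the KO list had a peak of 209 tags, fold 1.52. Inside the gene, 214 bp past the start, a region with peaks of both lists had 172 FM and 303 KO tags (1.76, 1.46 to 2.14). Dlk1 also had 7 FM-only and 6 KO-only peaks of −log10 q of at least 5, interleaved along the domain; the FM-only peak of highest fold lay 82.8 kb before the gene with 78 tags and fold 2.28, and the FM-only peaks with most tags had 139. Peaks of either list alone thus occurred side by side at Dlk1, while the pileups of the shared regions leaned to the KO list.

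**Figure D5:**
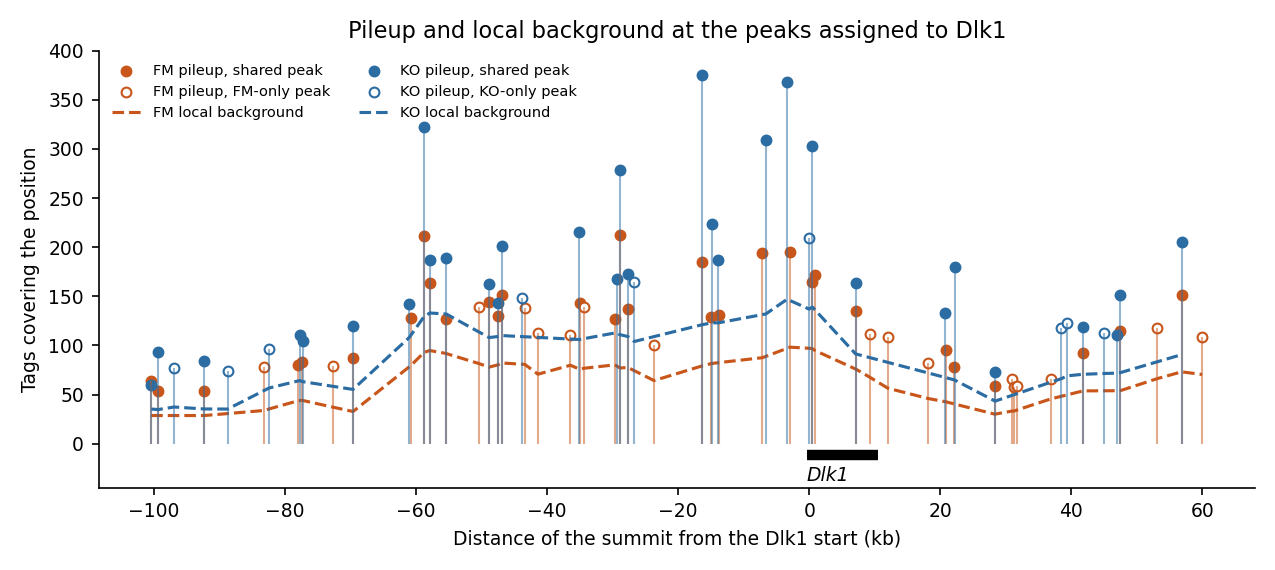
Tags covering the summit (points) and local background (dashed lines) at each peak assigned to Dlk1, against the distance of the summit from the start (kb); the black bar is the gene and open points are peaks of that list alone. The KO background line runs above the FM line along the whole domain, reaching 147 against 98.2 just before the start.

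Igf2 encodes the insulin-like growth factor II. Its 12 regions had a median KO to FM ratio of 0.849 and a background ratio of 0.829. Chromosome 7 as a whole had a median pileup ratio of 0.902. The interval lay wholly below 1 in 3 regions, the lowest being 115 FM against 71 KO tags (0.617, 0.453 to 0.837) 3.49 kb beyond the 3′ end of the gene. A single region went the other way. At chr7:142610429-142611653, 39.1 kb from the gene and over the long noncoding RNA Gm33148, pileups were 334 FM and 453 KO (1.36, 1.17 to 1.57), with folds of 4.05 and 6.66, the highest of Igf2 in each list. The start at chr7:142658804, whose promoter is printed above, lay in a region of 165 FM and 161 KO tags.

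Igf2 held 13 FM-only and 2 KO-only peaks, and those of −log10 q of at least 5 numbered 3 and 1. Inside the gene an FM-only peak at chr7:142659791-142660054 (160 tags) and a KO-only peak at chr7:142660590-142661017 (143 tags) lay close to each other. The other FM-only peaks lay 50.6 kb beyond the 3′ end (95 tags, fold 1.84) and 2.95 kb upstream of the gene (91 tags, fold 1.86). The hairpin of miR-483, a microRNA in an Igf2 intron, was overlapped by an FM-only peak with a fold of 1.51 and was 1133 bp from the nearest KO peak. Its mature sequences, with the seed in capitals, are shown because that peak overlaps the hairpin.

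mmu-miR-483-5p: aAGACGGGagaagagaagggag

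mmu-miR-483-3p: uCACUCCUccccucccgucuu

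Igf2r is the receptor that takes up Igf2 and sends it for degradation. Its start peak had similar pileups, 155 FM and 173 KO tags (1.12, 0.893 to 1.40), and folds of 3.46 and 3.97. Of its 13 regions a single one had an interval that left 1 out. This region lay over the start of Airn, the antisense RNA that silences Igf2r on the paternal copy. In it, at chr17:12741162-12742420, the highest FM summit had 65 tags and the highest KO summit 131 (2.02, 1.49 to 2.76), with folds of 2.05 and 3.03. These summits lay 596 bp apart, the KO one beside the Airn start and the FM one downstream. The ratio therefore compares different positions and is not a ratio at the start. The local background ratio was 1.37 in the same region. Igf2r had 17 FM-only and 3 KO-only peaks; 5 of the former and none of the latter reached a −log10 q of 5, with pileups of 62 to 85 tags.

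Grb10, an adaptor that dampens insulin and IGF receptor signalling, showed both directions within the gene. The region over its upstream start, that of the CG-rich promoter printed above, had 75 FM and 152 KO tags (2.03, 1.53 to 2.71). The folds were 2.57 and 3.55. The local background there was 28.6 for FM and 42.1 for KO, a ratio of 1.47. The summits compared lay 331 bp apart, and the start itself lay in a gap between FM peaks. At the internal region chr11:12025352-12027074, the strongest of the gene in each list, pileups were 202 FM and 155 KO (0.767, 0.618 to 0.951), with folds of 4.68 and 3.85. A second internal region at chr11:11972460-11973149 had 84 and 55 tags (0.655, 0.457 to 0.931). The FM-only peak with the highest −log10 q of all members, 14.8, lay at chr11:11965820-11966516 inside Grb10 and had 91 tags. A weaker FM-only peak (63 tags, fold 2.15) and a KO-only peak (62 tags, fold 2.11) also lay inside the gene.

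Cdkn1c, which encodes the cell cycle inhibitor p57, had a broad peak over the gene end at chr7:143461059 in each list, with 225 FM and 259 KO tags (1.15, 0.959 to 1.38). None of its 4 regions had an interval that left 1 out, and its list-only peaks were 3 FM peaks of 56 to 72 tags. Plagl1 is a zinc finger transcription factor. Its start had 85 FM and 80 KO tags (0.941, 0.685 to 1.29), its 7 regions had ratios from 0.794 to 1.09 with no interval leaving 1 out, and its local background stood at the genome-wide floor of each list in all 7, with a ratio of 1.01. Its strongest FM peak lay inside the gene, with 88 tags against 74 KO tags, and a KO-only peak of 67 tags and fold 2.28 lay near the 3′ end. Its start peaks also cover the start of the noncoding RNA Hymai.

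Peg3 is a zinc finger protein that shares its promoter with Usp29. A single FM peak of 3603 bp covered the start and the sequence downstream, where the KO list had 3 separate peaks. The highest summits had 313 FM and 417 KO tags (1.33, 1.15 to 1.55), and folds of 3.40 and 4.28. These summits lie inside the gene. At the start itself the FM peak had a summit of 213 tags and the KO peak one of 236 (1.11, 0.917 to 1.34), with folds of 2.46 and 2.44. The other Peg3 regions, with 59 to 81 tags, had no interval that left 1 out. An FM-only peak of 75 tags and fold 2.20 lay inside the gene.

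Snrpn, a splicing protein gene that shares its start with Snurf, had few peaks for a 468 kb locus. The region chr7:60003518-60004847, just inside the gene from that start, had 107 FM and 173 KO tags (1.62, 1.26 to 2.08) and folds of 3.65 and 4.98. The local background there was 28.6 for FM, its genome-wide floor, and 33.9 for KO. The start itself lay in a KO-only peak at chr7:60005030-60005262 with 104 tags, fold 2.98 and −log10 q 19.2. The other 3 Snrpn starts, upstream, were 37.7 kb or farther from the nearest peak of either list. Further KO-only peaks of 66 to 84 tags lay 37.7 kb and 42.2 kb above the gene and 80.0 kb below it.

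Peg10 is a retrotransposon-derived gene next to Sgce. The peak over the end they share had 168 FM and 151 KO tags (0.899, 0.717 to 1.13). Just inside the gene, at chr6:4748512-4749541, pileups were 237 FM and 351 KO (1.48, 1.25 to 1.75), with folds of 4.99 and 6.49. A KO-only peak of 108 tags and fold 2.07 lay just before that region. The strongest peak of all members lay 1.46 kb past the end of higher coordinate, at chr6:4761979-4762639, with 612 FM and 720 KO tags (1.18, 1.05 to 1.31) and folds of 14.8 and 17.3. Its local background was nearly equal, 40.4 and 40.6.

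Mest had its strong peaks near its starts. The start at chr6:30738050, whose promoter carries the ZFP57 core, had 228 FM and 164 KO tags (0.719, 0.585 to 0.883). The region just before it had 196 and 146 (0.745, 0.597 to 0.928). The start at chr6:30733506 lay in no peak, with FM and KO peaks 141 and 237 bp away. A region further inside the gene, near the hairpin of the microRNA miR-335, had 148 and 81 tags (0.547, 0.412 to 0.722), the lowest ratio of all members. List-only peaks did not all go with these ratios: FM-only peaks lay 2.61 kb (83 tags) and 11.2 kb (61 tags) upstream, and a KO-only peak of 110 tags lay inside the gene. Chromosome 6 had a median ratio of 0.915.

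The promoters that background knowledge gives as methylated in the egg can be set side by side, as a grouping made after the values were seen. For each of 7 such promoters the region of both lists over or nearest to it was taken, at its highest summit. The KO to FM ratio was above 1, with the interval above 1, at Airn (2.02), Snrpn (1.62) and Peg3 (1.33). At Peg3 the summit at the start itself gave 1.11 with an interval holding 1. At Airn the summits compared lay 596 bp apart, and the FM one was not at the start. The ratio was below 1, with the interval below 1, at Mest (0.719) and in the region nearest to the internal Grb10 start (0.767). That Grb10 start lay in no peak, 897 bp from the nearest FM peak and 988 bp from the nearest KO peak. At Plagl1 (0.941) and Peg10 (0.899) the interval of the ratio held 1. The Kcnq1ot1 promoter, also of this kind, is nearest to Kcnq1 and so not among the members' regions; it had 142 FM and 172 KO tags (1.21, 0.964 to 1.52). The promoters did not share a direction.

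Other imprinted genes in the same clusters gave similar shares. Of 36 listed genes 35 were found, with 500 FM and 404 KO peaks. Of these 57.2% and 71.0% were shared, against 49.8% and 73.4% over all peaks with a gene within 100 kb. FM peaks were 64.7% of the list-only peaks of these genes, against 73.7% over all genes. More FM-only than KO-only peaks were held by 20 genes, and more KO-only by 7. No matching count was made over all genes, which held a mean of 4.48 FM-only and 1.61 KO-only peaks. Rtl1, a neighbour of Dlk1, had the most list-only peaks, 15 FM-only and 28 KO-only; the others with many were Kcnq1 (25 and 6), Dio3 (21 and 9), Begain (14 and 15) and Slc22a3 (8 and 12). A start lay inside peaks of both lists for 21 of the 35 genes, against 61.3% of all protein-coding genes. For Ddc and Ins2 a start lay inside an FM peak alone, and for Mkrn3 and Phlda2 inside a KO peak alone. No start lay inside a peak of either list for 10 genes, namely Rtl1, Plg, Slc22a2, Asb4, Cpa4, Th, Tspan32, Kcnq1, Slc22a18 and Nap1l4. Ins2, Rtl1, Plg, Kcnq1 and Nap1l4 were not in the promoter table, so only their gene ends were looked at.

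At Mixl1 itself an end of the gene lay inside a peak of each list, with folds of 4.26 for FM and 2.97 for KO; the labels do not give the deleted part, so this peak does not check them. The cells' identity was checked by peaks over the starts of markers. Of 8 epiblast markers 7 had such a peak in both lists and Nanog in the KO list alone. Of 5 streak markers 4 had it, namely T, Eomes, Gsc and Mixl1, Evx1 being without. Mixl1 is the gene altered in these cells, so its peak is no check of identity either. Over all protein-coding genes the share was 61.3%. Of 8 fibroblast markers, which the feeder cells would carry, 5 had such a peak in both lists and Col1a1 in the FM list alone, while Col3a1 and Dcn had none. Of 6 extraembryonic markers 3 had it in both lists and Sox7 in the KO list alone, while Afp and Ttr had none. Col1a1, Dcn, Sox7 and Ttr were not in the promoter table, so only their gene ends were looked at. FM peaks made up 86.0% of the list-only peaks at the fibroblast markers (92 FM-only and 15 KO-only) and 80.0% at 6 extraembryonic markers (32 and 8), against 73.7% over all genes. The part of such cells in the values above was not tested.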

How the data were processed

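Peak lists named KO and FM were used, each for a group of 3 ATAC-seq libraries of 50000 cells amplified with 11 PCR cycles. The submitters' processing notes name mm10, MACS2, SAMtools, Bowtie2 and bcl2fastq. Pooling of libraries, shifting of reads for Tn5 and removal of duplicates were not given in the sources used here. For each peak the authors deposited a fold enrichment over local background (a ratio) with its −log10 p and −log10 q values; the lowest −log10 q was 1.30, a q of 0.05.

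Rows of 1 interval were collapsed to that of lowest p. Genes came from a RefSeq table of GRCm38.p6, starts from its promoter table (all members matched except Peg10 and Cdkn1c). For any gene without an entry there, both gene ends stood in for the start. The depth in reads is unknown. Pileup and local background were solved from fold and Poisson p; 99.99% of FM and 99.97% of KO pileups were whole within 0.02. Overlap, assignment and recovery were tested on simulated data with Python 3.11.15 and scipy 1.17.1. Each member was named with its start peak, its peak of highest fold and its list-only peaks of −log10 q of at least 5; other lists by counts, by genes without a start peak and by the 5 with most list-only peaks. Members and lists were chosen with earlier results of these data known. Alternatives changed the overlap, the peak threshold, the distance and the ties; leaving out Dlk1 and allowing 200 bp around a start were chosen after seeing the data.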

Additional observations from a re-analysis of the deposited data

How the results depend on the processing

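No paired analysis was possible because each group has a single list, and for the same reason no replicate could be left out. Of 26 recomputed values, 20 stayed within the interval of the value given above or, for starts, within 1.5 times of it. With the 50000 peaks of lowest p from each list, the shared share at the members was 73.0% for FM and 54.9% for KO (66.1% and 66.4% over all genes), and the FM part of list-only peaks was 30.3%, or 40.0% also without Dlk1; these lists hold fewer and stronger peaks. When an overlap of at least 50% of a peak's own length was required, 66.9% of the KO peaks were shared, against 67.1% over all genes. With both lists cut at a −log10 q of at least 5, the FM part of list-only peaks was 57.6% (34 of 59, interval 44.1 to 70.4). The value over all genes was 72.6%, above that interval. Starts within 100 bp of a summit in both lists were found for 2 genes, Mest and Plagl1, instead of 6, and starts inside or within 200 bp of a peak for 8. Depth limits the weak peaks: at 76 FM and 75 KO tags, in an Igf2r region, the interval of the pileup ratio ran from 0.708 to 1.38.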

Other observations

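The long noncoding RNAs of these clusters lie outside the counts above, because peaks were assigned to protein-coding genes. The start of Kcnq1ot1, the antisense RNA of the Cdkn1c cluster, had an FM peak of 142 tags and fold 3.60 and a KO peak of 172 tags and fold 4.43. Of the 2 starts of Meg3, the maternally expressed RNA of the Dlk1 cluster, the upstream one lay in a KO peak of 232 tags (fold 1.79, −log10 q 13.5), with the nearest FM peak 1675 bp away. The other lay in no peak, with an FM peak of 172 tags 562 bp away and the nearest KO peak at 1548 bp. An end of H19, the RNA that shares its control region with Igf2, lay in an FM peak of 141 tags and fold 1.70, and 1055 bp from the nearest KO peak.

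Of 17 genes that keep or erase imprints, 15 had a start peak in both lists, against 61.3% of all protein-coding genes. Dppa3 and Nlrp2 had no start peak in either list. Dppa3 was not in the promoter table, so only its gene ends were looked at. The 207 FM and 143 KO peaks of the 17 genes were shared at 55.1% and 79.0%, against 49.8% and 73.4% over all peaks with a gene within 100 kb. Dnmt3a, a de novo DNA methyltransferase, had the most list-only peaks, 18 FM-only and 5 KO-only, followed by Smchd1 (11 and 6), Tet1 (9 and 4), Arid4a (9 and 2) and Dnmt1 (8 and 2). At the start of Dnmt1, the maintenance methyltransferase, the fold was 4.75 for FM and 8.52 for KO. Of 20 imprinted genes at other loci, 16 had a start peak in both lists, against 61.3% of all protein-coding genes. Nnat had one in the FM list alone. Dcn, Kcnk9 and Impact had none, but they were not in the promoter table, so only their gene ends were looked at. The list-only peaks of these 20 genes were FM peaks in 72.4%, against 73.7% over all genes. Trappc9 led with 54 FM-only and 26 KO-only.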
